A study of Mus musculus with 12 samples.

Results

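The genes described here are 10 genes of the NRF2 programme and of glutathione defence: Nfe2l2, Slc7a11, Gclc, Gclm, Gpx2, Gpx4, Nqo1, Hmox1, Srxn1 and Txnrd1. They were taken by symbol from a count table of 55357 genes, and all 10 were among the 17358 genes that passed the filter on low counts. Positions are those of GENCODE M21 on GRCm38. Liver RNA was sequenced from male C57BL/6J mice that entered the experiment at 7 weeks of age and were fed for 6 weeks. WT mice (PPARafl/fl AlbuminCre+/+) carry floxed Ppara alleles without Cre, and KO mice (PPARafl/fl AlbuminCreTg/+) carry the same alleles with a Cre driven by the albumin promoter, so that Ppara is deleted in hepatocytes and other liver cells keep it. Mice received chow or CDAHFD, a choline-deficient, amino-acid defined high-fat diet. The labels give 4 WT chow, 2 KO chow, 3 WT CDAHFD and 3 KO CDAHFD libraries, while the study's methods give the same number of mice for every group; the labels were followed, and each library was taken as a separate mouse.

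NRF2, the protein of Nfe2l2, is a transcription factor that is held back by KEAP1, which hands it to a ubiquitin ligase. Oxidants and electrophiles modify KEAP1, NRF2 then accumulates, pairs with small MAF proteins and binds antioxidant response elements near genes of glutathione synthesis, detoxification, haem breakdown and thiol repair. Glutathione feeds the peroxidases that reduce hydrogen peroxide and lipid hydroperoxides, and loss of the lipid hydroperoxide branch, in which GPX4 acts, leads to the iron-dependent cell death called ferroptosis. Several of these genes are also driven by ATF4, the transcription factor of amino acid and endoplasmic reticulum stress, and PPARα is the nuclear receptor that switches on fatty acid oxidation in the fasted liver.

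Promoter sequences of 8 of the 10 genes were at hand from RefSeq (build GRCm38.p6), as windows from 250 bases before to 50 bases after each annotated start. They were searched on both strands for the core of the antioxidant response element (TGACNNNGC), an ATF4 site (TGATGNAA), the AP-1 site TGACTCA, the PPAR hexamer AGGTCA and the PPAR direct repeat AGGTCANAGGTCA. An AP-1 site that is followed by GC also matches the antioxidant response element, and the hexamer lies within the direct repeat. The 5 windows below are shown because each holds a match to 1 of the first 3 motifs; that of Txnrd1 belongs to the second of its annotated starts. Only the 250 bases before the start are shown, 5′ to 3′ on the strand of the gene, with matches to the antioxidant response element, the ATF4 site and the AP-1 site in capitals:
Nfe2l2 (chr2:75704664-75704913, minus strand): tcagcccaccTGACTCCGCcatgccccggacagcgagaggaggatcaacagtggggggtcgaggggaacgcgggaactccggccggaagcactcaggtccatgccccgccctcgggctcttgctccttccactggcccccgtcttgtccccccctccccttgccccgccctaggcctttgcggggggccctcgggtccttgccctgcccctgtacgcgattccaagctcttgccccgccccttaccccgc
Slc7a11 (chr3:50443614-50443863, minus strand): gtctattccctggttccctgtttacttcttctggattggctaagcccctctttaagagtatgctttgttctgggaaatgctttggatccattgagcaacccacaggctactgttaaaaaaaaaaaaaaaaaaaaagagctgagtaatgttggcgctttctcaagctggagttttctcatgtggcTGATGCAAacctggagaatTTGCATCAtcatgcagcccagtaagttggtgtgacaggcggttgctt
Gclm (chr3:122245307-122245556, plus strand): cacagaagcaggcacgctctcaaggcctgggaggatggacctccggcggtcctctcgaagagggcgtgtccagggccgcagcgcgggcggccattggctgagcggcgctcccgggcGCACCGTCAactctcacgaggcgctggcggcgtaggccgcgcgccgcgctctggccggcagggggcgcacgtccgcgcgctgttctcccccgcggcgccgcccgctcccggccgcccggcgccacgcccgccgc
Srxn1 (chr2:152105274-152105523, plus strand): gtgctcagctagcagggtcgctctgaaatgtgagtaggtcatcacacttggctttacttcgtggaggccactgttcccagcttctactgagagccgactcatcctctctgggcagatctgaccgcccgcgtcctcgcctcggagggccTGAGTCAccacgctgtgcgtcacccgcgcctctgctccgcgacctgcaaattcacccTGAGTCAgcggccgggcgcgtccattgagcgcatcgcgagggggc
Txnrd1 (chr10:82858956-82859205, plus strand): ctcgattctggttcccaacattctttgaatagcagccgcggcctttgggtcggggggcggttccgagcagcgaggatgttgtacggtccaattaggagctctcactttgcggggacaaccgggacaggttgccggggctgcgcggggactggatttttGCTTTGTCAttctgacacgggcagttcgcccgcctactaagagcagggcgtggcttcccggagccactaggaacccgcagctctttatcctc

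The antioxidant response element core was present in the windows of Nfe2l2, Gclm, Srxn1 and Txnrd1, that is in 4 of 8 genes, against 14% of the 27025 genes in the promoter table. In Nfe2l2 it began 240 bases before the start, in Gclm 134 and in Txnrd1 92 bases before it, while the match of Srxn1 began at base 29 after the start and is not part of the stretch shown; it overlaps a PPAR hexamer that begins at base 32. Slc7a11 was the gene with the ATF4 site, which its window held in both orientations at 66 and 47 bases before the start, and 4.51% of genes had such a site. Srxn1 held the AP-1 letters at 102 and 45 bases before the start (5.95% of genes). The PPAR hexamer was found for Gpx2, Gpx4 and Srxn1 (18.1% of genes) and the direct repeat in none of the 8 (0.0481% of genes). These are matches of letters and were not tested for binding.

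Total counts per library ran from 29906785 to 43551003. Counts were scaled by the trimmed mean of M values (TMM) and are given as CPM, counts relative to the same scaled library total. Groups were compared by quasi-likelihood F tests in edgeR, adjusted over the 17358 genes by the method of Benjamini and Hochberg, at an adjusted p below 0.05. The targeted gene, Ppara, had 170 CPM ± 72.3 (SD, n = 4) in WT chow, 26.5 ± 17.1 (n = 2) in KO chow, 69.5 ± 8.75 (n = 3) in WT CDAHFD and 36.3 ± 15.6 (n = 3) in KO CDAHFD. It was lower in each of the other groups than in WT chow, where the log2 fold change was -2.68 for KO chow, -1.29 for CDAHFD-fed WT and -2.23 for CDAHFD-fed KO livers (adjusted p = 0.00111, 0.0163 and 0.000641). Between the CDAHFD groups its difference of -0.94 did not pass (adjusted p = 0.547).

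Libraries of a group differed in their circadian clock genes. A clock score, the mean centred log2 CPM of 9 day-phase genes minus that of 5 genes of the Arntl set, was -2.682 and -2.351 in WT chow replicates 1 and 2 and 3.055 and 3.257 in replicates 3 and 4. It was -2.186 and 1.474 in the KO chow libraries, between -1.292 and -0.3479 in WT CDAHFD, and -0.8346, -0.8143 and 3.926 in KO CDAHFD. The labels give no time of sampling. Each result below was therefore also computed with the score as a covariate and from the 8 libraries with a score below 0. Where the second changed a call of the 10 genes or the counts printed for a list, its values are given beside the result. That subset was chosen after seeing the data. It leaves KO chow with 1 library, assumed to vary like the rest, so its KO chow values rest on that library. The covariate changed no call of the 10 genes. Ppara split with the score in WT chow, at 120 and 96.2 CPM in replicates 1 and 2 and 238 and 226 in replicates 3 and 4. The WT CDAHFD libraries, all with scores below 0, had 59.5, 75.5 and 73.5 CPM. The comparisons of Ppara given above take no account of the score.

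Markers of several other cell types also differed between the groups. The 8 hepatocyte markers (Alb, Apoa1, Apob, Ttr, Tat, Serpina1a, Cps1, Hnf4a) were not at 0 throughout any group, and summed to 90000 to 107000 CPM on chow and 47900 to 57100 on CDAHFD in WT livers, and to 75800 to 88300 and 45200 to 59600 in KO livers. The 12 Kupffer cell and macrophage markers summed to 371 to 679 CPM on chow and 1560 to 2150 on CDAHFD in WT livers, and to 1280 to 1550 and 1460 to 1750 in KO livers. Of these 12, 9 rose and 1 fell in KO chow, and 7 rose and 2 fell in each CDAHFD group. On CDAHFD, Trem2 rose by 6.99 and Ccr2 by 3.97 on the log2 scale in WT livers, and by 7.0 and 3.87 in KO livers. Timd4 and Cd163 of resident macrophages fell there (log2 fold changes -4.57 and -4.4 in WT and -2.75 and -3.1 in KO livers). In chow-fed KO livers Trem2 rose by 5.16 and Ccr2 by 3.14, while Cd163 fell (-1.72). That fall of Cd163 did not pass under total-count scaling (-1.33). From the libraries with clock scores below 0, 7 rose and 3 fell in WT CDAHFD and 8 rose and 2 fell in KO CDAHFD. In the same order, cholangiocyte markers (8 genes) ran from 46.4 to 79.7, 365 to 586, 168 to 291 and 578 to 895 CPM, and stellate cell markers (8 genes) from 232 to 332, 1410 to 1480, 1210 to 1340 and 1510 to 2010. The summed endothelial markers (6 genes) ran from 178 to 272, 121 to 170, 169 to 250 and 121 to 214 CPM, those of red blood cells (5 genes) from 318 to 444, 138 to 154, 251 to 460 and 170 to 205, and those of lymphocytes (7 genes) lay between 6.19 and 9.66 in all groups. The neutrophil markers (5 genes) ran from 0.913 to 8.5, 10.3 to 12, 10.5 to 22.7 and 12.2 to 14.3, and Ly6g and Mpo were at 0 in every WT chow library. In bulk liver, a change in the number of cells of a type and a change in RNA per cell cannot be told apart, and the part of these cells in the results below was not tested.

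Loss of PPARα in hepatocytes, CDAHFD, and both together each went with higher levels of most of the 10 genes. Against WT chow, 8 of 10 rose in KO chow and none fell, 8 of 10 rose in WT CDAHFD and none fell, and 7 of 10 rose in KO CDAHFD while Gclm fell. Of all genes tested, 22.0% rose and 17.0% fell in KO chow, 26.1% rose and 25.0% fell in WT CDAHFD, and 26.9% rose and 25.4% fell in KO CDAHFD. These shares are the background for the counts of every list below under TMM scaling. The median log2 fold change of the 10 genes was 1.71, 1.54 and 1.27 in these comparisons, against 0, -0.05 and -0.04 over all tested genes. The 8 libraries with clock scores below 0 gave 7, 8 and 7 higher and none lower, and with the total count as the only scaling 9, 9 and 8 rose and none fell. Under total-count scaling the median of all tested genes was itself 0.40, 0.51 and 0.57. The genes called in either direction then numbered 8186, 10262 and 10870, against 6763, 8863 and 9091 under TMM. Counts under total-count scaling, here and for every list below, are to be read against this general shift. Its part in them was not tested. The 3 comparisons share the WT chow libraries. The study drew Nfe2l2, Slc7a11, Gpx2, Nqo1 and Hmox1 among its ferroptosis genes on these same samples, so that the direction of these 5 is not independent evidence.

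**Figure D1:**
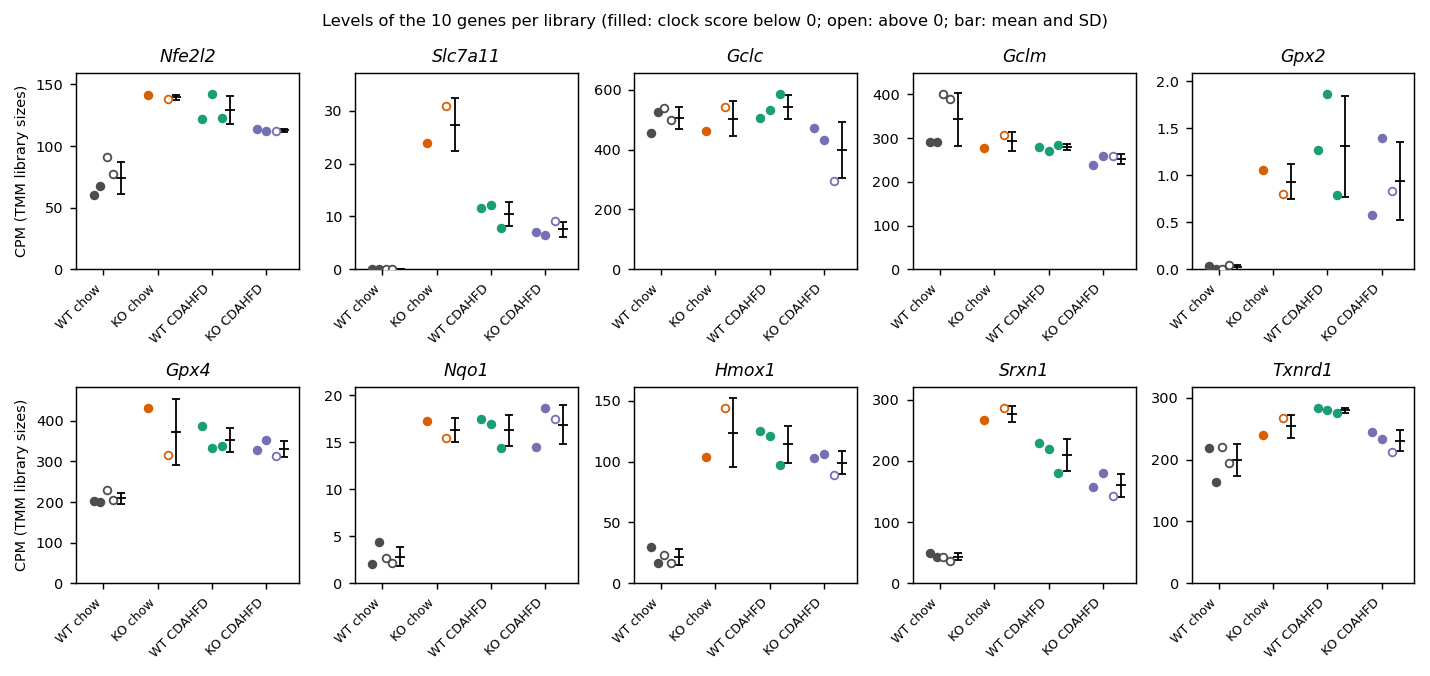
Level of each gene in each of the 12 libraries, as CPM on TMM library sizes (vertical axes start at 0 and differ between panels), by group. Filled points are libraries with a clock score below 0, open points those above 0, and black bars give the mean and SD. Slc7a11 and Gpx2 lie near 0 in WT chow, where they had at most 2 counts a library, Gclc overlaps between WT chow and every other group, and Gclm is lowest in the CDAHFD groups.

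Nfe2l2 (ENSMUSG00000015839, chr2:75675513-75704641, minus strand), which encodes NRF2 itself, rose in all 3 groups. Its level was 60.4, 67.9, 90.9 and 77.1 CPM in WT livers on chow and 122, 142 and 123 on CDAHFD, and KO livers had 141 and 138 on chow and 114, 112 and 112 on CDAHFD. All WT chow libraries lay below all others, and the KO CDAHFD libraries lay below those of KO chow and WT CDAHFD. The log2 fold change against WT chow was 0.91 ± 0.14 (SE) in KO chow, 0.80 ± 0.13 in CDAHFD-fed WT and 0.60 ± 0.13 in CDAHFD-fed KO livers, with adjusted p of 0.000257, 0.000188 and 0.00144. The differences among the last 3 groups did not pass the test. The 3 values were 1.32, 1.37 and 1.22 with the total count as the only scaling, and 1.13, 1.01 and 0.82 from the libraries with clock scores below 0.

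The regulators of NRF2 were less uniform under TMM scaling. Their values under total-count scaling are to be read against the general shift given above. Of 15 listed genes, 4 rose and none fell in KO chow, 6 rose and 2 fell in WT CDAHFD, and 5 rose and 2 fell in KO CDAHFD. Among all tested genes 22.0% rose and 17.0% fell in KO chow, 26.1% and 25.0% in WT CDAHFD, and 26.9% and 25.4% in KO CDAHFD. Sqstm1, whose protein p62 binds KEAP1 and brings it to autophagy, rose from 541 CPM ± 37.3 (SD, n = 4) in WT chow to 1130 ± 158 (n = 2) in KO chow, 1020 ± 7.83 (n = 3) in WT CDAHFD and 838 ± 207 (n = 3) in KO CDAHFD (adjusted p = 0.000335, 0.000283 and 0.00387). Mafk, a small MAF partner of NRF2, rose by 1.08, 1.39 and 1.14 on the log2 scale, and Maff rose by 1.29 in WT CDAHFD. Palb2, whose protein also binds KEAP1, rose by 1.36 in KO chow and 1.25 in KO CDAHFD, and the ligase Syvn1 fell by 1.07 in KO CDAHFD. Keap1 had differences of -0.17, -0.12 and -0.14 and Bach1, the repressor that competes with NRF2 at its sites, of -0.27, 0.06 and -0.24, none of which passed the test. Mafg passed in WT CDAHFD alone (0.32, adjusted p = 0.0396; KO chow -0.12, adjusted p = 0.531; KO CDAHFD 0.29, adjusted p = 0.0561), and Nfe2l1, a relative of NRF2, did not pass in any (-0.31, 0.09 and -0.32). The ligase parts Cul3 (-0.38 in WT and -0.49 in KO livers) and Rbx1 (-0.37 in WT livers) were lower on CDAHFD. With the total count as the only scaling the values of Cul3 and Rbx1 turned to 0.18, 0.13 and 0.19 and that of Syvn1 to -0.50, none of them passing, Keap1 to 0.23, 0.43 and 0.46 with the last 2 passing, Bach1 to 0.14, 0.63 and 0.39 and Nfe2l1 to 0.09, 0.65 and 0.29 with those of WT CDAHFD passing, and Mafg passed in KO CDAHFD too (0.90). Under this scaling the list stood at 7, 12 and 10 higher in the 3 comparisons, with none lower, and from the libraries with clock scores below 0 WT CDAHFD had 8 higher and 4 lower and KO CDAHFD 7 higher and 3 lower.

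Slc7a11 (ENSMUSG00000027737, chr3:49892526-50443614, minus strand), which encodes xCT, the subunit that brings cystine into the cell for glutathione synthesis, had the largest fitted change of the 10 genes in all 3 comparisons with WT chow. The WT chow libraries held 1, 0, 2 and 2 counts. The gene stood at 23.8 and 30.9 CPM in KO chow (876 and 1273 counts), at 11.6, 12.1 and 7.91 CPM in WT CDAHFD and at 6.98, 6.58 and 9.11 CPM in KO CDAHFD. KO chow lay above both CDAHFD groups, and the CDAHFD groups overlapped. Over the pooled counts of a group the ratio to WT chow was 602 in KO chow (exact 95% interval 258 to 1860), 232 in WT CDAHFD (99.3 to 716) and 166 in KO CDAHFD (70.9 to 513); the intervals cover counting error only and rest on 5 counts in WT chow. The test gave adjusted p = 1.44e-08, 1.38e-08 and 2.58e-08. In each comparison the interval of the pooled ratio overlapped that of Gpx2, given below, so the rank above Gpx2 holds for the fitted values only.

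Slc7a11 also set KO chow apart from both CDAHFD groups. It was higher in KO chow than in WT CDAHFD by 1.38 on the log2 scale (SE 0.25, adjusted p = 0.00679) and lower in KO CDAHFD than in KO chow by 1.85 (log2 fold change -1.85, SE 0.25, adjusted p = 0.0017). The call against WT CDAHFD was lost without KO chow replicate 2 (1.18, adjusted p = 0.0562). Slc3a2, the heavy chain that carries xCT to the membrane, rose from 46.0 CPM ± 4.6 (SD, n = 4) to 109 ± 19.7 (n = 2), 90.0 ± 3.04 (n = 3) and 91.2 ± 20.5 (n = 3) in KO chow and in WT and KO livers on CDAHFD (adjusted p = 7.88e-05, 0.000165 and 0.000132). Slc7a11 had the ATF4 letters in its promoter window shown above. In the ATF4 list of 16 genes, 10 rose and 1 fell in KO chow, 9 rose and 1 fell in WT CDAHFD and 10 rose and 1 fell in KO CDAHFD. The transcription factor Atf3 rose by 4.76, 5.23 and 5.13 on the log2 scale, the serine synthesis enzyme Phgdh by 4.97 in KO chow and the stress protein Nupr1 by 3.44 in WT CDAHFD and 4.6 in KO CDAHFD, while the mitochondrial enzyme Shmt2 fell by 0.89, 0.83 and 0.97.

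The subunits of glutamate-cysteine ligase, the rate-limiting enzyme of glutathione synthesis, did not follow Slc7a11. Gclc (ENSMUSG00000032350, chr9:77754535-77794485, plus strand), the catalytic subunit, had 457, 525, 540 and 499 CPM in WT livers on chow and 507, 531 and 585 on CDAHFD, and KO livers had 463 and 544 on chow and 471, 431 and 295 on CDAHFD. Its groups overlapped in every comparison with WT chow, and KO CDAHFD replicate 3 was the lowest library. The log2 fold change was -0.01 in KO chow (95% interval -0.37 to 0.36). On CDAHFD it was 0.10 in WT livers (-0.22 to 0.42) and -0.34 in KO livers (-0.66 to -0.02, adjusted p = 0.0717). Without KO CDAHFD replicate 1 the last value was -0.48 and passed the test (adjusted p = 0.031), and without replicate 3 it was -0.16 (adjusted p = 0.282). With the total count as the only scaling the 3 values were 0.40, 0.66 and 0.26, and the first and second passed.

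Gclm (ENSMUSG00000028124, chr3:122245557-122270732, plus strand), the modifier subunit, had 290, 292, 400 and 388 CPM in WT livers on chow and 280, 271 and 285 on CDAHFD, and KO livers had 277 and 308 on chow and 238, 259 and 258 on CDAHFD. The WT chow libraries with the high values were replicates 3 and 4, those with clock scores above 0. Both CDAHFD groups lay below WT chow without overlap, and KO chow overlapped it. Gclm fell in KO CDAHFD (log2 fold change -0.44, SE 0.13, adjusted p = 0.0111), and its differences of -0.23 in KO chow and -0.30 in WT CDAHFD did not pass (adjusted p = 0.238 and 0.0697). The latter passed without WT chow replicate 1 (-0.35, adjusted p = 0.0281) and without replicate 2 (-0.34, adjusted p = 0.0394). From the libraries with clock scores below 0 the KO CDAHFD value was -0.23 and did not pass (adjusted p = 0.103), and with the total count as the only scaling it was 0.17 (adjusted p = 0.198), beside 0.18 and 0.27 in KO chow and WT CDAHFD. Gclm shares 296 exon bases (4.71% of its exons) with Gm17494 on the opposite strand and 244 (3.88%) with the pseudogene Gm6061, and the libraries do not mark strand.

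Other genes of glutathione synthesis and turnover went both ways. Of 23, 7 rose and 4 fell in KO chow, and 9 rose and 9 fell in WT CDAHFD and again in KO CDAHFD. Among all tested genes 22.0% rose and 17.0% fell in KO chow, 26.1% and 25.0% in WT CDAHFD, and 26.9% and 25.4% in KO CDAHFD. The neutral amino acid carrier Slc1a4 rose by 2.75, 1.81 and 2.31 on the log2 scale in the 3 comparisons, and Slc1a5, a glutamine carrier, by 1.81 and 2.10 in the CDAHFD groups. Gnmt and Ahcy encode enzymes of the methionine cycle, which feeds cysteine synthesis. Gnmt fell by 2.49 and 2.01 in the CDAHFD groups, and Ahcy fell by 1.56 in KO chow and 1.80 in KO CDAHFD. The liver glutaminase Gls2 fell by 1.94 in WT CDAHFD and 5-oxoprolinase (Oplah) by 1.17 in KO chow. With the total count as the only scaling the CDAHFD counts were 12 higher and 6 lower, and from the libraries with clock scores below 0 the 3 comparisons had 8, 7 and 8 higher and 3, 10 and 9 lower.

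The selenium-dependent peroxidases Gpx2 and Gpx4 rose in all 3 groups from very different levels. Gpx2 (ENSMUSG00000042808, chr12:76792333-76795554, minus strand), known from the gut epithelium, had 1, 0, 0 and 1 counts in WT chow. Its counts were 39 and 33 in KO chow, 62, 96 and 36 in WT CDAHFD and 24, 52 and 35 in KO CDAHFD, which is 0.582 to 1.86 CPM. Every library of these groups lay above WT chow, and the 3 groups overlapped. The ratio of pooled counts to WT chow was 50.4 in KO chow (exact 95% interval 13.5 to 425), 72.6 in WT CDAHFD (19.8 to 604) and 50.3 in KO CDAHFD (13.6 to 420), resting on 2 counts in WT chow, with adjusted p = 9.31e-05, 1.25e-05 and 3.22e-05. Gpx2 lies within an intron of Fntb on the opposite strand and shares no exon base with it.

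Gpx4 (ENSMUSG00000075706, chr10:80047166-80056439, plus strand), the enzyme that reduces lipid hydroperoxides in membranes and guards against ferroptosis, had 203, 199, 230 and 206 CPM in WT livers on chow and 387, 332 and 338 on CDAHFD, and KO livers had 431 and 316 on chow and 328, 352 and 313 on CDAHFD. The WT chow libraries lay below all others, and the KO chow libraries were far apart. Its log2 fold change was 0.84 ± 0.13 (SE) in KO chow, 0.75 ± 0.12 in CDAHFD-fed WT and 0.66 ± 0.12 in CDAHFD-fed KO livers, with adjusted p of 0.000308, 0.000195 and 0.000484. With the total count as the only scaling the 3 values were 1.24, 1.31 and 1.27. Among the other glutathione peroxidases, 5 of 6 listed were tested, of which 3 rose and 2 fell in KO chow, 3 rose and 1 fell in WT CDAHFD and 3 rose and 2 fell in KO CDAHFD. The median log2 fold change of these 5 was 1.72, 1.85 and 2.19 in the 3 comparisons. At most 2 rising genes are named per comparison, so a gene named for 1 group need not be particular to it. Gpx8, of the same family, rose by 1.98 in KO chow. Gpx7, of the endoplasmic reticulum, rose by 3.53, 3.45 and 3.32 on the log2 scale and the secreted Gpx3 by 2.39 and 2.41 in the CDAHFD groups, whereas Gpx1, the abundant cytosolic form, went from 2450 CPM ± 158 (SD, n = 4) to 1770 ± 210 (n = 2) in KO chow and 1660 ± 253 (n = 3) in KO CDAHFD (-0.47 and -0.56). Under total-count scaling the values of Gpx1 were -0.07 and 0.04 and did not pass, so that 3 of the 5 rose and 1 fell in both groups, and from the libraries with clock scores below 0 3 rose and 1 fell in KO chow.

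Nqo1 and Hmox1, textbook NRF2 targets, rose about as far in each group. Nqo1 (ENSMUSG00000003849, chr8:107388225-107403206, minus strand), a quinone reductase, had 2.10, 4.34, 2.67 and 2.20 CPM in WT livers on chow and 17.5, 16.9 and 14.4 on CDAHFD, and KO livers had 17.2 and 15.4 on chow and 14.5, 18.6 and 17.5 on CDAHFD. Its log2 fold change was 2.51 ± 0.23 (SE) in KO chow, 2.51 ± 0.21 in CDAHFD-fed WT and 2.56 ± 0.22 in CDAHFD-fed KO livers, with adjusted p of 4.21e-06, 1.06e-06 and 8.69e-07. KO CDAHFD overlapped both other groups above WT chow, and it differed from WT CDAHFD by 0.05 (95% interval -0.41 to 0.52) and from KO chow by 0.05 (-0.48 to 0.57).

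Hmox1 (ENSMUSG00000005413, chr8:75093621-75100589, plus strand), which opens haem to biliverdin, carbon monoxide and iron, had 30.1, 16.6, 23.0 and 16.4 CPM in WT livers on chow and 125, 121 and 97.1 on CDAHFD, and KO livers had 104 and 144 on chow and 103, 106 and 88.7 on CDAHFD. All WT chow libraries lay below all others. Its log2 fold change was 2.53 ± 0.22 (SE) in KO chow, 2.41 ± 0.20 in CDAHFD-fed WT and 2.20 ± 0.20 in CDAHFD-fed KO livers, with adjusted p of 2.67e-06, 9.77e-07 and 1.86e-06. Macrophages express Hmox1 as well, and the rise of their summed markers is given above. Of 14 other genes of haem breakdown and synthesis, 2 rose and 5 fell in KO chow, 2 rose and 6 fell in WT CDAHFD and 2 rose and 7 fell in KO CDAHFD. Among all tested genes 22.0% rose and 17.0% fell in KO chow, 26.1% and 25.0% in WT CDAHFD, and 26.9% and 25.4% in KO CDAHFD. The haem exporter Flvcr1 rose by 0.71, 1.29 and 1.33 on the log2 scale, and the haem scavenger Hpx by 1.0 in KO chow. Biliverdin reductase Blvra rose by 0.33 in WT CDAHFD and 0.29 in KO CDAHFD. The synthesis enzymes Cpox (-0.76 in KO chow, -0.98 in KO CDAHFD), Fech (-0.68 in KO chow, -0.59 in WT CDAHFD) and Urod (-0.81 and -0.77 in the CDAHFD groups) fell. With the total count as the only scaling, 3 rose and none fell in KO chow, 5 rose and 1 fell in WT CDAHFD and 6 rose and 1 fell in KO CDAHFD; Cpox in KO chow (-0.35), Fech (-0.27 and -0.03) and Urod in KO CDAHFD (-0.16) no longer passed. From the libraries with clock scores below 0 none rose and 3 fell in KO chow, 2 rose and 7 fell in WT CDAHFD and 2 rose and 6 fell in KO CDAHFD.

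Srxn1 and Txnrd1 serve the thioredoxin branch. Srxn1 (ENSMUSG00000032802, chr2:152105516-152111376, plus strand), the sulfiredoxin that repairs overoxidised peroxiredoxins, had 50.2, 43.2, 43.0 and 37.0 CPM in WT livers on chow and 229, 219 and 180 on CDAHFD, and KO livers had 267 and 286 on chow and 157, 180 and 143 on CDAHFD. The means descended from KO chow through WT CDAHFD to KO CDAHFD, and among the 4 groups only the CDAHFD groups overlapped. Its log2 fold change against WT chow was 2.67 ± 0.14 (SE) in KO chow, 2.27 ± 0.13 in CDAHFD-fed WT and 1.88 ± 0.13 in CDAHFD-fed KO livers, with adjusted p of 7.98e-08, 4.9e-08 and 1.68e-07. It was lower in KO CDAHFD than in KO chow (-0.79, SE 0.15, adjusted p = 0.0112), a call that was lost without KO chow replicate 1 (-0.82, adjusted p = 0.0593), without KO chow replicate 2 (-0.74, adjusted p = 0.0647) and in the libraries with clock scores below 0 (-0.67, adjusted p = 0.0681).

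Txnrd1 (ENSMUSG00000020250, chr10:82833951-82897712, plus strand), the cytosolic thioredoxin reductase, had 218, 164, 220 and 194 CPM in WT livers on chow and 283, 280 and 275 on CDAHFD, and KO livers had 240 and 267 on chow and 245, 234 and 212 on CDAHFD. WT CDAHFD and KO chow lay above WT chow, and KO CDAHFD overlapped it. The log2 fold change on CDAHFD was 0.49 ± 0.11 (SE, adjusted p = 0.00315) for WT and 0.21 ± 0.11 (SE, adjusted p = 0.141) for KO livers, and the latter passed without WT chow replicate 1 (0.29, adjusted p = 0.0455) and with the total count as the only scaling (0.82, adjusted p = 6.25e-05). For KO chow the value was 0.35 ± 0.13 (SE, adjusted p = 0.0462). This call was lost in the libraries with clock scores below 0 (0.33) and when only the groups compared were fitted (0.36, adjusted p = 0.111). Leaving out any of 9 of the 12 libraries also lost it, with values of 0.27 to 0.44. The exceptions were WT chow replicates 1 and 3 and KO CDAHFD replicate 3. With the total count as the only scaling, KO chow had 0.75 and CDAHFD-fed WT livers 1.05 (adjusted p = 0.000486 and 8.39e-06).

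Among the remaining thioredoxin, peroxiredoxin, catalase and superoxide dismutase genes, more fell than rose under TMM scaling. Of 20, 1 rose and 10 fell in KO chow, 1 rose and 14 fell in WT CDAHFD and 1 rose and 13 fell in KO CDAHFD. The gene that rose was extracellular Sod3 in each case (1.02, 1.05 and 1.04 on the log2 scale). Catalase (Cat), the peroxisomal enzyme that splits hydrogen peroxide, fell from 4540 CPM ± 505 (SD, n = 4) to 1740 ± 335 (n = 2), 1840 ± 45.2 (n = 3) and 1540 ± 102 (n = 3), Sod1 fell by 1.06 and 0.98 in the CDAHFD groups, and Txnip, an inhibitor of thioredoxin, fell by 0.96 in KO chow. The medians of -0.42, -0.59 and -0.55 became -0.01, -0.04 and 0.07 with the total count as the only scaling, where Txnip did not pass (-0.54) and 7 rose and 2 fell, 7 rose and 4 fell, and 6 rose and 5 fell. Under that scaling the median of all tested genes was 0.40, 0.51 and 0.57 in the same comparisons, against 0, -0.05 and -0.04 under TMM, and the list's medians relative to it were -0.41, -0.55 and -0.50. From the libraries with clock scores below 0 5, 12 and 10 fell in the 3 comparisons.

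**Figure D2:**
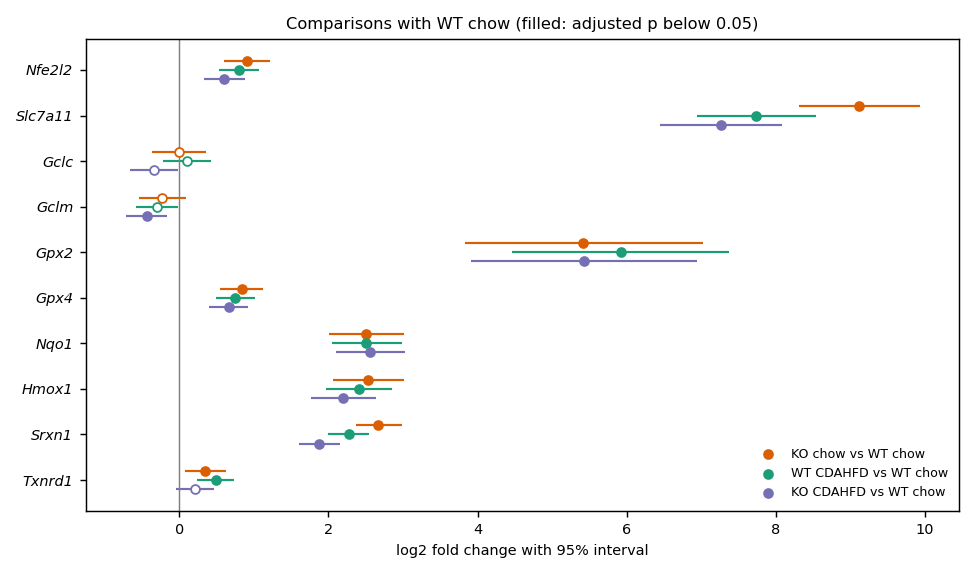
Log2 fold change of each gene against WT chow in each of the other 3 groups, with 95% intervals from edgeR's quasi-likelihood fit and filled points where the adjusted p was below 0.05. Gclc and Gclm lie between -0.44 and 0.10 while the other 8 genes lie above 0. The fitted values of Slc7a11 and Gpx2 rest on at most 2 counts in each WT chow library and depend on the prior count.

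Further NRF2 targets mostly rose. Of 36, 22 rose and 4 fell in KO chow, 21 rose and 4 fell in WT CDAHFD and 21 rose and 3 fell in KO CDAHFD. Gsta1, a glutathione transferase, rose from 0.426 CPM ± 0.172 (SD, n = 4) in WT chow to 39.7 ± 3.75 (n = 2), 19.0 ± 2.02 (n = 3) and 16.3 ± 4.08 (n = 3), and reads may be shared with its close paralogs. Cbr3, a carbonyl reductase, rose from 0.530 ± 0.0841 (n = 4) to 9.71 ± 1.96 (n = 2), 8.82 ± 1.70 (n = 3) and 5.60 ± 0.455 (n = 3). Gstp1 fell, from 3070 ± 379 (n = 4) to 1030 ± 265 (n = 2), 706 ± 61.0 (n = 3) and 503 ± 15.4 (n = 3), as did malic enzyme Me1 in the CDAHFD groups (-2.33 and -2.93) and Ugt1a6a in KO chow (-1.12). Under total-count scaling 28 rose and 1 fell in KO chow, 29 rose and 3 fell in WT CDAHFD and 29 rose and 2 fell in KO CDAHFD, and Ugt1a6a did not pass (-0.71). From the libraries with clock scores below 0 23 rose in each comparison and 3, 4 and 3 fell.

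Genes that hold ferroptosis back and genes that favour it were also listed. The general shift under total-count scaling, given above, applies to their counts too. Among all tested genes 22.0% rose and 17.0% fell in KO chow, 26.1% and 25.0% in WT CDAHFD, and 26.9% and 25.4% in KO CDAHFD. Of 17 protective genes, 5 rose and 3 fell in KO chow, 4 rose and 7 fell in WT CDAHFD and 4 rose and 6 fell in KO CDAHFD. Besides Slc3a2, the acyltransferase Mboat1 rose by 2.72, 2.23 and 2.95 on the log2 scale. The desaturase Scd1 fell by 5.87 and 5.0 in the CDAHFD groups, and Sephs2, which makes selenophosphate for selenoproteins, fell by 0.94, 1.26 and 1.03. Sepsecs, which acts after it, fell by 0.60 in KO chow. Of 17 tested promoting genes, 6 rose and 1 fell in KO chow, 8 rose and 1 fell in WT CDAHFD and 7 rose and 3 fell in KO CDAHFD. Cybb, the phagocyte NADPH oxidase, rose by 1.87, 2.92 and 2.60, Cyb5r1 by 1.78 in KO chow and the reductase Far1 by 1.77 and 1.65 in the CDAHFD groups, while Nox4 fell by 1.91, 1.10 and 1.36 and the ferritin receptor Ncoa4 by 0.56 in KO CDAHFD. Under total-count scaling 9 protective genes rose in each comparison and 1, 2 and 2 fell, and 10, 11 and 12 promoting genes rose with 1 lower in each; Sepsecs (-0.19) and Ncoa4 (0.06) did not pass. From the libraries with clock scores below 0, 7, 6 and 6 protective genes rose and 2, 6 and 5 fell in the 3 comparisons, while 6 promoting genes rose and 1 fell in WT CDAHFD and 4 rose and 2 fell in KO CDAHFD.

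**Figure D3:**
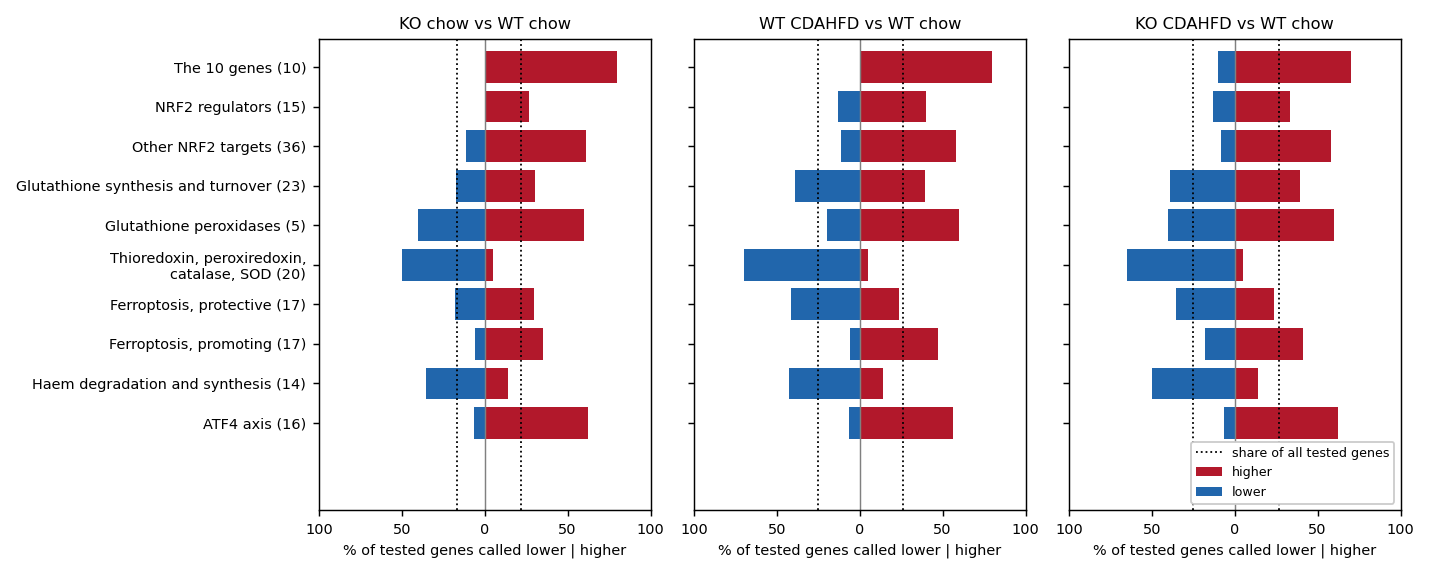
Share of tested genes called higher (right of 0) and lower (left of 0) than in WT chow, in percent of the genes tested (number in parentheses), for the 10 genes and for the other lists. Dotted lines mark the share of all tested genes called in that direction, 22.0%, 26.1% and 26.9% for higher and 17.0%, 25.0% and 25.4% for lower. The other NRF2 targets and the ATF4 axis lean to higher, as do the 10 genes, and the thioredoxin, peroxiredoxin, catalase and superoxide dismutase (SOD) genes lean to lower. Some lists share genes.

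On CDAHFD, KO and WT livers differed in none of the 10 genes past the threshold, where 0.357% of all genes were called, and DESeq2 called none either. Before adjustment, Gclc, Srxn1 and Txnrd1 had p below 0.05 in edgeR's quasi-likelihood test, each lower in KO CDAHFD, with log2 fold changes of -0.44 (95% interval -0.78 to -0.10), -0.39 (-0.68 to -0.09) and -0.28 (-0.54 to -0.01). Their adjusted p were 0.421, 0.401 and 0.536, and ranged over the other settings from 0.225 to 0.79, 0.224 to 0.92 and 0.239 to 0.942. Without KO CDAHFD replicate 3 the value of Gclc was -0.26, and it was -0.26 from the libraries with clock scores below 0 as well. The intervals of the other 7 genes all included 0 and were narrowest for Gpx4 (-0.37 to 0.19) and widest for Gpx2 (-1.40 to 0.42). The groups did not overlap for Nfe2l2, Gclc, Gclm and Txnrd1, each lower in KO CDAHFD, and 11.3% of all tested genes were likewise lower there without overlap.

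KO CDAHFD against KO chow gave 2 calls, Slc7a11 and Srxn1, both lower, where 6.19% of all genes were called. KO chow against WT CDAHFD gave 1 call, Slc7a11, where 6.12% were called. Srxn1 was higher there by 0.40 (95% interval 0.07 to 0.73, adjusted p = 0.13) and did not pass. The other 8 genes lay between -0.49 (Gpx2) and 0.12 (Hmox1) on the log2 scale in this comparison.

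**Figure D4:**
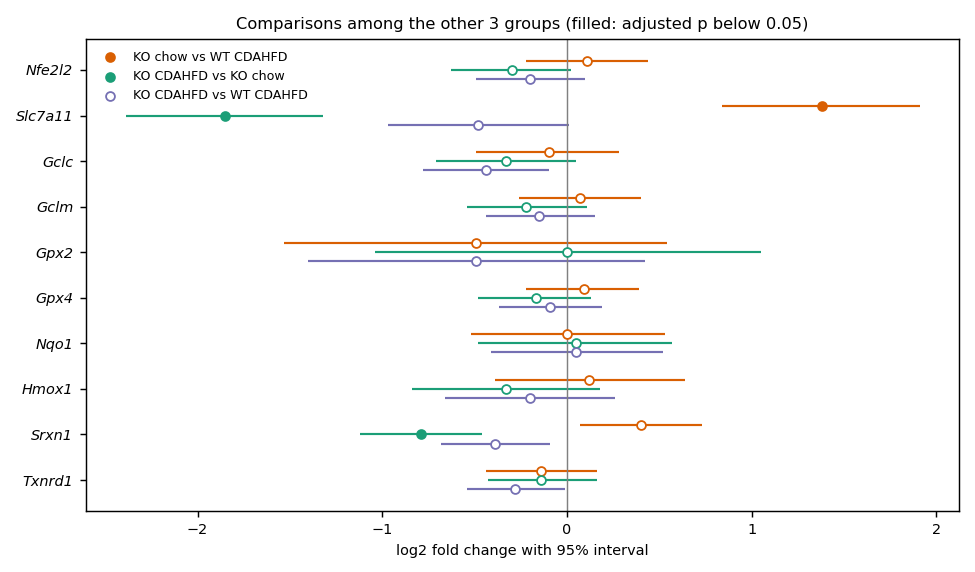
Log2 fold change of each gene in the 3 comparisons that leave out WT chow, with 95% intervals and filled points where the adjusted p was below 0.05. Slc7a11 stands out with 1.38 for KO chow against WT CDAHFD and -1.85 for KO CDAHFD against KO chow, and most intervals of the other genes include 0.

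The interaction term asks whether the difference between KO and WT on CDAHFD departs from that on chow. It passed for 8 of the 10 genes, all negative, where 23.1% of all genes were called in either direction. For Nqo1 it was -2.46 (SE 0.32, adjusted p = 0.000155): the KO and WT chow means were 16.3 and 2.83 CPM, and those on CDAHFD 16.9 and 16.3. Hmox1 had -2.74 (SE 0.31, adjusted p = 5.76e-05) and Srxn1 -3.06 (SE 0.20, adjusted p = 1.07e-06). Nfe2l2 (-1.10), Gpx4 (-0.92) and Txnrd1 (-0.63) had smaller terms, and Txnrd1 lost its call in the libraries with clock scores below 0 (-0.55, adjusted p = 0.0961), without WT CDAHFD replicate 1 (-0.62, adjusted p = 0.0519), without KO chow replicate 2 (-0.55, adjusted p = 0.0865) and with the replicate block (-0.62, adjusted p = 0.0691). Slc7a11 (-9.60) and Gpx2 (-5.91) rest on the near absence of counts in WT chow, so that their size depends on the prior count. Gclc (-0.43, 95% interval -0.93 to 0.06) and Gclm (0.08, -0.35 to 0.51) did not pass.

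The levels themselves spanned several orders of magnitude. Per kilobase of exon, WT chow liver had most Gclc (134 CPM per kb ± 9.65, SD, n = 4) and Gpx4 (121 ± 8.10), which overlap within their spread, then Gclm (54.4 ± 9.44), Txnrd1 (28.1 ± 3.68), Nfe2l2 (19.5 ± 3.46), Srxn1 (15.4 ± 1.92) and Hmox1 (12.3 ± 3.70), where the ranges of mean ± SD overlap between neighbours from Nfe2l2 to Hmox1, and Nqo1 at 1.82 ± 0.670. In KO chow Gpx4 led (217 CPM per kb ± 47.3, n = 2), before Gclc (134 ± 15.2), Srxn1 (98.1 ± 4.58) and Hmox1 (71.0 ± 16.1). In WT CDAHFD the order at the top was Gpx4 (204 ± 17.7, n = 3), Gclc (144 ± 10.6), Srxn1 (74.3 ± 9.27) and Hmox1 (65.2 ± 8.55), and in KO CDAHFD Gpx4 (192 ± 11.3, n = 3), Gclc (106 ± 24.5), Srxn1 (56.7 ± 6.59) and Hmox1 (56.6 ± 5.21), where Srxn1 and Hmox1 overlap within their SDs in both CDAHFD groups. Slc7a11 was at most 1.96 CPM per kb (KO chow) and Gpx2 at most 0.406 (WT CDAHFD).

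Across the 12 libraries, the 8 genes that rose in KO chow followed each other and Gclc and Gclm did not. Pearson's r of log2 CPM was 0.98 between Slc7a11 and Srxn1 and between Hmox1 and Srxn1, and 0.94 between Nfe2l2 and Slc7a11. Among these 8 genes the lowest value was 0.65, between Nqo1 and Txnrd1. Gclc had values from -0.21 to 0.26 with them and 0.39 with Gclm, and Gclm had values from -0.73 to -0.32. These are descriptions over 12 libraries in 4 groups that share their scaling, and they mostly restate the group differences. The genes with the most similar pattern over the 17358 tested were Rbbp8 for Nfe2l2 (r = 0.977), Apoa4 for Slc7a11 (0.996), Krt8 for Gpx2 (0.983), Dcn for Nqo1 (0.991), Slfn9 for Hmox1 (0.993), Smox for Srxn1 (0.989), Gas2l1 for Txnrd1 (0.934), Cnot6l for Gclm (0.962) and Gm33280 for Gclc (0.863).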

How the data were processed

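Liver RNA of 12 mice was sequenced as poly-A selected libraries that do not mark strand. According to the submitters' processing notes and the methods, the authors checked reads with FastQC 0.11.5 and aligned them to GRCm38 with STAR 2.7.3a. The deposited values are raw read counts per Ensembl gene, and the counting program and annotation release are not given in the sources used here. Symbols and positions were taken from GENCODE M21 (GRCm38).

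Genes were kept with filterByExpr and fitted with glmQLFit and glmQLFTest (edgeR 4.0.16, R 4.3.3) with 1 coefficient per group (4 groups), TMM scaling and Benjamini-Hochberg adjustment. SE is the size of the log2 fold change divided by the square root of F, and log2 CPM used a prior count of 2. DESeq2 1.42.0, other scalings, no filter, a replicate block, the clock score and leaving out each library were alternatives. The steps were tested on simulated data. Each p-value sets a group difference against a spread between libraries that the 4 groups share. KO chow, with 2 libraries, thus relies on the spread of the other groups. Depth was 29906785 to 43551003 counts, and intervals of pooled ratios are exact and cover counting error only.

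The 10 genes and all lists were chosen with earlier results of these data known. Some lists share genes. The other NRF2 targets share Txn1 and Prdx1 with the thioredoxin list, Trib3 with the ATF4 list and Fth1 and Ftl1 with the protective list. The glutathione synthesis list shares Slc3a2 with the protective list and Chac1 with the ATF4 list. Beside the 10 genes, Ppara and 5 named regulators, the text names up to 2 higher and 2 lower genes of each list per comparison with WT chow, taking the largest changes among called genes that averaged 50 counts or more. The gene most alike by Pearson's r was named for 9 of the 10 genes. A few single-gene results that these rules select are not reported here. Promoters of Gclc and Hmox1 were not used.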

Additional observations from a re-analysis of the deposited data

Results flagged for a closer look

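The difference between KO and WT departed between chow and CDAHFD for 8 of the 10 genes, by the interaction term of the edgeR fit (quasi-likelihood F test, Benjamini-Hochberg adjusted). On the log2 scale the term was -1.10 for Nfe2l2 (adjusted p = 0.00139), -9.60 for Slc7a11 (adjusted p = 1.58e-07), -5.91 for Gpx2 (adjusted p = 0.000396), -0.92 for Gpx4 (adjusted p = 0.00309), -2.46 for Nqo1 (adjusted p = 0.000155), -2.74 for Hmox1 (adjusted p = 5.76e-05), -3.06 for Srxn1 (adjusted p = 1.07e-06) and -0.63 for Txnrd1 (adjusted p = 0.0221). The term of Txnrd1 did not pass under 4 alternatives (adjusted p = 0.0519 to 0.0961). Each of these genes was higher in KO than in WT on chow, and none differed between KO and WT on CDAHFD past the threshold. Over all genes 23.1% were called for this term. In WT chow no library stood apart from its group for any of the 10 genes by the gap test used for groups of 4, and the groups of 2 and 3 are too small for it.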

How the results depend on the processing

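The counts of called genes stayed within 1.5 times of those reported in the 3 comparisons with WT chow, between the CDAHFD groups and for the interaction, under every alternative run. For KO CDAHFD against KO chow the count of 2 was 1 in the 8 libraries with clock scores below 0, an alternative chosen after seeing the data, which leaves KO chow with 1 library that is assumed to vary like the rest, and ranged from 1 to 2 when libraries were left out in turn, with 1 where either KO chow library was dropped. For KO chow against WT CDAHFD it ranged from 0 to 1, with 0 without KO chow replicate 2. With the total count as the only scaling Gclc in KO chow turned from -0.01 to 0.40 (adjusted p = 0.0411) and Gclm in KO CDAHFD from -0.44 to 0.17 (adjusted p = 0.198), Gclc rose in WT CDAHFD (0.66) and Txnrd1 in KO CDAHFD (0.82), and the interaction of Gclc passed (-0.80); under this scaling the median of all genes against WT chow was 0.40 to 0.57, and the cause was not tested. Of 1390 values of single genes under other settings, 1360 kept their call, 21 lost it, 7 gained it and 2 are the reversals above. Of the 1360, 47 changed sign; these were called in neither fit and at most 0.39 in size. Same-numbered libraries did not deviate together (r from -0.242 to 0.266), so the numbers were not used as pairs. With the replicate number as a block, Txnrd1 lost its call in KO chow (0.34, adjusted p = 0.134) and in the interaction (-0.62, adjusted p = 0.0691), and no other call of the 10 genes changed. The block also gave 2 higher and none lower of the 15 NRF2 regulators in KO chow and 3 higher and 3 lower in WT CDAHFD, 6 lower thioredoxin and related genes in KO chow, and 1 higher and 5 lower haem genes in KO CDAHFD. With DESeq2, and with the clock score as covariate, 3 thioredoxin and related genes rose in KO chow and 2 in KO CDAHFD. The regulators stood at 6 higher and 1 lower in KO CDAHFD with DESeq2, and at 6 higher and 4 lower in WT CDAHFD with the covariate. In the promoters, the antioxidant response element core was in 3 of 8 genes when only bases before the start were read, against 11.5% of the genes in the promoter table. KO chow rests on 2 libraries, and Gpx2 on 24 to 96 counts per library outside WT chow.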
